A study of Mus musculus with 16 samples.

Results

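The genes described here are 10 angiogenic factors and receptors that act on blood vessels: the ligands Vegfa, Vegfb, Vegfc and Pgf, their receptors Kdr and Flt1, the ligand Angpt1 with its receptor Tek, and the inhibitors Serpinf1 and Thbs1. They were chosen by symbol, through their Ensembl identifiers, from a table of 51912 genes. All 10 were found, and all 10 were among the 15380 genes tested, those whose CPM (counts scaled to a common library total) averaged 1 or more over the 16 libraries. Their counts per library ran from 172 for Pgf to 40309 for Thbs1.

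Male C57BL/6 mice aged 40 weeks gave the RNA, taken from the RPE (retinal pigment epithelium), a single sheet of pigmented cells between the photoreceptors and the choroidal vessels. The study's title ties the succinate receptor SUCNR1 to age-related macular degeneration under oxidative stress. Mice were wild type or SUCNR1 knockout, and each genotype was left untreated or given hydroquinone, an oxidant found in tobacco smoke. The labels used here give neither the dose, route and length of the exposure nor the design of the knockout allele, and no other allele or agent. There were 4 groups of 4 libraries, each library from 1 eye. By the titles the wild-type libraries came from 2 untreated and 4 exposed mice and the knockout libraries from 3 untreated and 4 exposed mice, 13 mice in all, since 3 mice gave both eyes. The protocol instead names 4 animals per group, and the titles were followed.

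Total counts ranged from 21113549 to 35332444 per library. Sucnr1 had 0 to 17 counts in a library, at most 0.666 CPM in untreated wild type and at most 0.0968 CPM in untreated knockout, so the genotype labels could not be checked from it and are used as given. All 14 RPE markers had counts in every group, and Rpe65, the retinoid isomerase of the visual cycle, ranged from 2153 to 4345 CPM. Markers of other tissues were present at levels that differed more between libraries. Krt12, a corneal keratin, ranged from 242 to 10340.1 CPM with its highest values in replicates 1 and 2 of wild type with hydroquinone, the oligodendrocyte gene Mog from 0 to 94.4 CPM, and the endothelial gene Pecam1 from 19.3 to 55.9 CPM. Their part in the results on the angiogenic genes was not tested, beyond the fits with marker scores given below. In such bulk samples, fewer cells of a type and less RNA per cell cannot be told apart.

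VEGF-A, released by the RPE towards the choroid, keeps the fenestrated capillaries beneath it alive and, in excess, drives the vessel growth of neovascular macular degeneration. It signals through the receptor tyrosine kinase VEGFR2, encoded by Kdr, while VEGFR1, encoded by Flt1, binds VEGF-A tightly, signals weakly and can act as a decoy, and also binds VEGF-B and placental growth factor. Angiopoietin 1 activates the receptor TIE2, encoded by Tek, and stabilises vessels. Pigment epithelium-derived factor (PEDF, encoded by Serpinf1) and thrombospondin 1 (encoded by Thbs1) restrain vessel growth, and the RPE is a known source of both.

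Per kilobase of exon, Thbs1 was the most abundant of the 10 genes and Pgf the least. The median level over the 16 libraries, in RPKM (CPM per kilobase of merged exon), was 167 for Thbs1 and 62.9 for Vegfa. Serpinf1 had a median of 47.6 RPKM and Vegfb of 47.0 RPKM. Thbs1 was above Vegfa in 16 of 16 libraries and Vegfa above Serpinf1 in 15 of 16, whereas Serpinf1 was above Vegfb in only 7 of 16. A gap separated these 4 from the other 6 genes, since Vegfb was above Kdr in 16 of 16 libraries. The medians of those 6 lay close together, at 8.84 RPKM for Kdr, 7.93 for Tek, 7.12 for Angpt1, 6.29 for Flt1, 5.27 for Vegfc and 4.17 for Pgf. Neighbours in that sequence changed places often: each was above the next in 9 to 13 of 16 libraries.

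**Figure D1:**
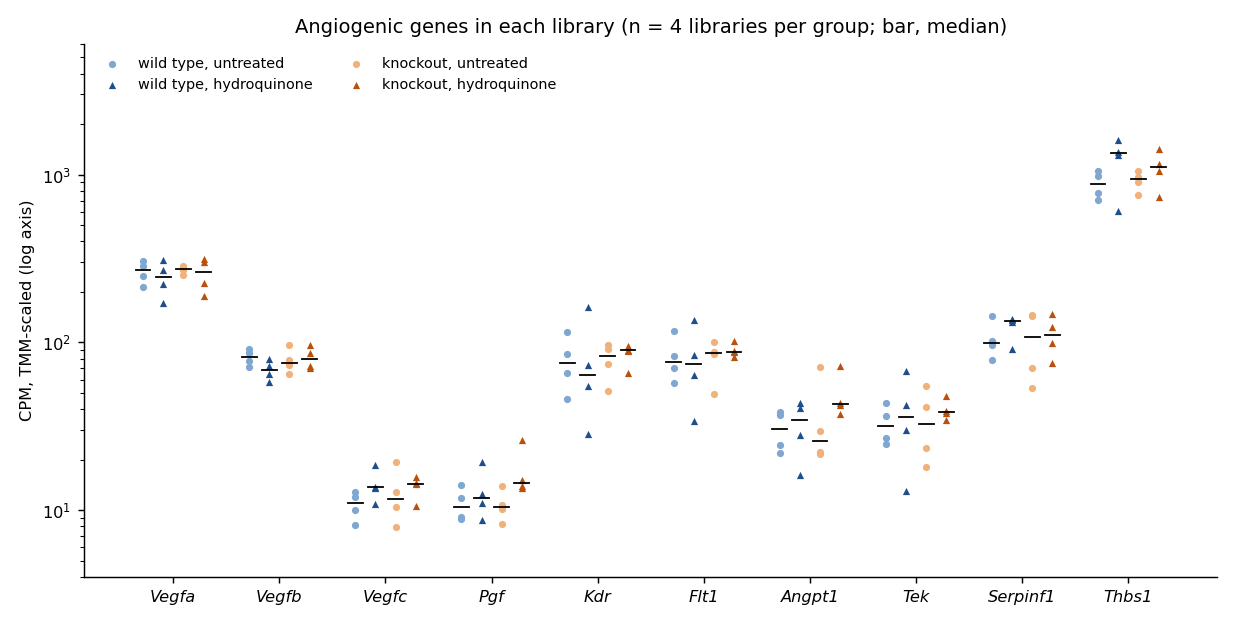
CPM of the 10 genes (log axis) in each of the 16 libraries, by genotype and treatment, with 4 libraries per group and a bar at the group median. CPM is not divided by gene length. For every gene the untreated and hydroquinone libraries of each genotype share part of their range.

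The genes differed in how steady they were between libraries of a group. Of the VEGF ligands, Vegfa and Vegfb had within-group SDs of 0.28 and 0.20 on the log2(CPM + 1) scale, and Vegfc and Pgf of 0.34 and 0.37, against a median of 0.27 over all genes tested. The receptors and Angpt1 spread more widely, with SDs of 0.63 for Kdr, 0.52 for Flt1, 0.64 for Tek and 0.58 for Angpt1. Between 84.6% and 89.9% of the tested genes had a smaller SD than these 4. The eyes of 1 mouse could differ as much as mice did: Serpinf1 was at 144 CPM in replicate 1 and 53.5 CPM in replicate 3 of untreated knockout, which came from the same animal, a 2.68-fold gap. For Vegfa the gap between the eyes of a mouse was at most 1.43-fold. In each of the 3 mice with both eyes, 1 library identifier held a letter and the other did not (described below). Differences between eyes and between these forms therefore cannot be told apart.

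Exposure to hydroquinone was the first question put to these genes. None of the 10 passed the test for hydroquinone averaged over genotype, in which 13 of 15380 genes did, 0.0845% (edgeR's quasi-likelihood test, Benjamini-Hochberg adjusted p below 0.05). One of the 10, Pgf, had an unadjusted p below 0.05, against 5.72% of all genes tested. The estimates were above 0 for 8 of the 10, with a median log2 fold change of 0.20, where 51.2% of all genes were above 0 and their median was 0.00. None passed within wild type, where 1 gene did (0.0065%), or within knockout, where 7 did (0.0455%). The 11 genes that were higher under hydroquinone over both genotypes included Cbr3, Gclc, Gstm1, Mocs1, Nqo1, Osgin1, Pgd, Srxn1, Sytl3 and Txnrd1, several of which encode enzymes of glutathione, quinone and NADPH metabolism, and the 2 that were lower were Prb1 and Prpmp5. Leaving out 1 library at a time moved the count of 13 to between 7 and 15, that of 1 in wild type to between 1 and 3, and that of 7 in knockout to between 3 and 11.

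Vegfa, the main ligand, lay in the same range in all groups. In wild type it was at 213, 304, 286 and 250.2 CPM in the untreated libraries (replicates 1 to 4) and at 222, 173, 311 and 269.9 CPM with hydroquinone. Among knockout libraries it was at 269, 277, 285 and 253 CPM untreated and at 189.6, 227, 299.7 and 315 CPM with hydroquinone. The untreated knockout libraries were the tightest, and the hydroquinone libraries of both genotypes extended below and above them. The log2 fold change averaged over genotype was -0.09 (SE 0.13), and its 95% interval ran from 0.771-fold to 1.14-fold (edgeR adjusted p = 0.944). Vegfb, a VEGFR1 ligand linked to fatty acid uptake, had a log2 fold change of -0.10 (SE 0.10), with an interval from 0.805-fold to 1.09-fold.

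Pgf, placental growth factor, a VEGFR1 ligand that adds to VEGF-A signalling in disease, had the smallest p-value of the 10. It was at 8.82, 11.8, 14.1 and 9.16 CPM in untreated wild type and at 8.74, 12.4, 11.1 and 19.3 CPM in wild type with hydroquinone. It was at 8.24, 13.9, 10.8 and 10.1 CPM in untreated knockout and at 13.9, 13.5, 15.1 and 26.2 CPM in knockout with hydroquinone. In knockout the groups overlapped only through replicate 2 of the untreated libraries, while in wild type they overlapped broadly. The log2 fold change was 0.45 (SE 0.19) averaged over genotype, a fold of 1.37 with an interval from 1.03 to 1.82, with an unadjusted p of 0.0344 and an adjusted p of 0.864 by edgeR's test. It was 0.67 (SE 0.27) in knockout and 0.23 (SE 0.27) in wild type, and the difference between genotypes, 0.44 (SE 0.39), did not pass the test (edgeR adjusted p = 1.00). Without the highest library, replicate 4 of knockout with hydroquinone, the averaged estimate was 0.31 and that in knockout was 0.39.

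Vegfc, best known as a ligand of the lymphatic receptor VEGFR3, ranged from 7.93 to 19.3 CPM over all libraries. Its highest library was replicate 1 of untreated knockout. Its log2 fold change for hydroquinone was 0.26 (SE 0.18), with an interval from 0.922-fold to 1.56-fold.

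The receptors showed intervals wide enough to hold sizeable changes in either direction. Kdr was at 46.1, 65.4, 115 and 85.0 CPM in untreated wild type and at 28.5, 54.8, 161 and 73.1 CPM in wild type with hydroquinone. In knockout it was at 74.6, 91.4, 51.0 and 96.3 CPM untreated and at 88.6, 65.8, 90.3 and 95.7 CPM with hydroquinone. Both the lowest and the highest Kdr library were wild type with hydroquinone, replicates 1 and 3. These 2 libraries were also the lowest and the highest for Flt1 and for Tek. The log2 fold changes were 0.07 (SE 0.29) for Kdr, 0.06 (SE 0.24) for Flt1 and 0.21 (SE 0.29) for Tek. Their intervals ran from 0.688-fold to 1.61-fold, from 0.735-fold to 1.48-fold and from 0.755-fold to 1.78-fold. For Angpt1, the TIE2 ligand, the estimate was 0.25 (SE 0.28), with an interval from 0.790-fold to 1.79-fold.

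Of the inhibitors, Thbs1 had the second-smallest p-value of the 10 genes. It was at 705, 983, 1047 and 781 CPM in untreated wild type and at 1306, 608, 1603 and 1369 CPM in wild type with hydroquinone. In knockout it was at 901, 1050.5, 971 and 756 CPM untreated and at 731, 1056, 1156 and 1428 CPM with hydroquinone. In each genotype 3 of the 4 hydroquinone libraries lay above all 4 untreated ones and the remaining one below them. The averaged log2 fold change was 0.36 (SE 0.18), with an interval from 0.979-fold to 1.69-fold (unadjusted p = 0.0685, adjusted p = 0.901, edgeR). The low library in wild type, replicate 2, was also the one with the highest Krt12 level, and the averaged estimate without it was 0.47.

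Serpinf1, which encodes PEDF, was at 96.5, 101, 144 and 78.8 CPM in untreated wild type and at 91.7, 137, 137 and 133 CPM in wild type with hydroquinone. In knockout it was at 144, 145, 53.5 and 70.8 CPM untreated and at 99.0, 75.3, 123 and 148 CPM with hydroquinone. The untreated knockout libraries fell into a high and a low pair, and the 2 eyes of 1 mouse stood on opposite sides of that gap. The high pair had library identifiers without a letter and the low pair had identifiers with one. The averaged log2 fold change was 0.18 (SE 0.22), with an interval from 0.822-fold to 1.56-fold.

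**Figure D2:**
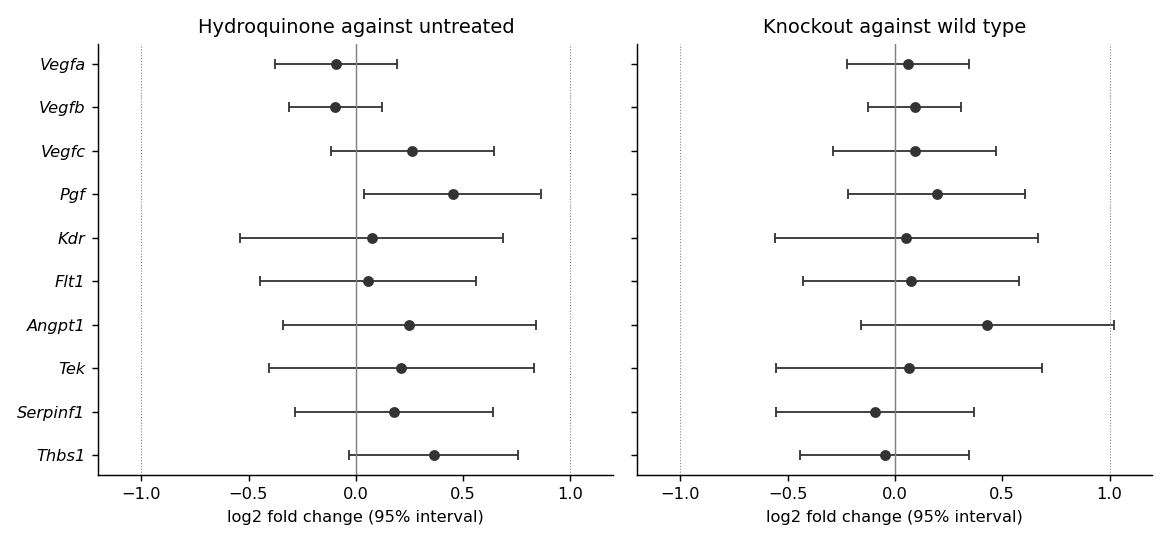
Log2 fold changes of the 10 genes with 95% intervals, for hydroquinone against untreated averaged over genotype (left) and for knockout against wild type averaged over treatment (right), from the edgeR fit over 16 libraries. The dotted lines mark a 2-fold change in either direction. All intervals for knockout span 0, and for hydroquinone only that of Pgf does not, before adjustment for the genes tested.

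Loss of SUCNR1 was the second question. None of the 10 genes passed the test in untreated mice (0.0% of all genes passed), under hydroquinone (0.0%) or averaged over treatment (0.0%), and none had an unadjusted p below 0.05. By edgeR no gene at all passed in these comparisons, while 203, 643 and 456 genes, respectively, had an unadjusted p below 0.05. DESeq2 called 3 genes under hydroquinone and none in the other 2 comparisons. Averaged over treatment the median log2 fold change of the 10 was 0.07, against 0.02 over all genes tested. The largest estimate was that of Angpt1, at 0.43 (SE 0.28), with an interval from 0.895-fold to 2.03-fold (edgeR adjusted p = 0.987).

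Angpt1 was at 24.3, 36.9, 38.6 and 22.0 CPM in untreated wild type and at 29.7, 71.5, 22.2 and 21.6 CPM in untreated knockout. With hydroquinone it was at 16.2, 28.0, 43.3 and 40.5 CPM in wild type and at 37.2, 42.5, 43.7 and 71.9 CPM in knockout. One knockout library in each treatment stood far above the others, and the rest overlapped the wild type. Without replicate 2 of untreated knockout the averaged estimate was 0.15. Reads of Angpt1 could not be separated from its antisense transcript Gm17473 if counting ignored strand, but that gene had at most 24 counts in a library.

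For the other 9 genes the knockout estimates lay between -0.09 for Serpinf1 and 0.19 for Pgf. The intervals were narrowest for Vegfa, from 0.857-fold to 1.27-fold, and Vegfb, from 0.917-fold to 1.24-fold. They were widest for Kdr, from 0.678-fold to 1.59-fold, and Tek, from 0.682-fold to 1.61-fold. The effect of hydroquinone was not shown to differ between genotypes for any of the 10: none passed the interaction test (0.0% of all genes passed, and 296 had an unadjusted p below 0.05), and none had an unadjusted p below 0.05. The interaction estimates of the 10 ran from -0.27 for Vegfc to 0.44 for Pgf.

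The balance of the main ligand to 1 of the 2 inhibitors was read within each library as the ratio of Vegfa to Serpinf1 on the log2(CPM + 1) scale, averaged over the eyes of a mouse. As linear ratios it was 2.21, 3.00, 1.99 and 3.17 in untreated wild type and 2.42, 1.26, 2.27 and 2.03 in wild type with hydroquinone. The knockout ratios were 1.87, 1.90, 5.32 and 3.58 untreated and 1.92, 3.01, 2.43 and 2.12 with hydroquinone. In CPM, which is not divided by gene length, Vegfa exceeded Serpinf1 in every library, and the 2 highest ratios were untreated knockout libraries with low Serpinf1. The log2 ratio was 1.41 ± 0.34 in 5 untreated mice and 1.08 ± 0.36 in 8 mice given hydroquinone (SD). The difference of -0.33 did not pass an exact permutation test over mice (2-sided p = 0.130, adjusted p = 0.519 over 4 ratio tests). Between 7 knockout and 6 wild-type mice the difference was 0.24 (exact permutation p = 0.274, adjusted p = 0.548), and it was 0.095 without replicate 2 of wild type with hydroquinone.

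The ratio of the decoy receptor Flt1 to the signalling receptor Kdr was steadier than either gene. It ranged from 0.832 to 1.26 as a linear ratio of CPM, while Kdr itself ranged from 28.5 to 161 CPM. The log2 ratio was 0.10 ± 0.19 in 8 mice with hydroquinone and 0.05 ± 0.20 in 5 untreated mice (SD, exact permutation p = 0.657, adjusted p = 0.657). The difference between knockout and wild type was -0.05 (exact permutation p = 0.650, adjusted p = 0.657).

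Across the 13 mice, Vegfa and Thbs1 rose and fell with RPE markers, the receptors with endothelial markers, and Serpinf1 with fibroblast markers. Marker scores (the mean log2(CPM + 1) of a list of cell type markers, none of them among the 10 genes) were computed for RPE, choroidal endothelium, rods and, as a later addition, stromal fibroblasts. The 10 genes by 4 scores gave 40 relations over mice, each tested by permutation with 100000 resamples, 2-sided, and adjusted over the 40. After adjustment 12 of them passed on Pearson's r: 3 with the RPE score, 6 with the endothelial score, 3 with the fibroblast score and none with the rod score. All 10 genes had a negative r with the rod score. Genes and scores share the scaling of each library, and RNA of other tissues varied widely between libraries. The 6 corneal markers summed to 3553 to 28415 CPM and the 14 rod markers to 257 to 24443 CPM. What part this had in the values of r was not tested.

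Vegfa tracked the RPE score, with r = 0.90 (permutation p = 3.0e-05, adjusted p = 4.0e-04) and Spearman's coefficient = 0.92 (permutation p = 5.0e-05, adjusted p = 6.7e-04) over 13 mice. Without the 2 mice farthest from the median score r was 0.83. Thbs1 followed with r = 0.79 (permutation p = 0.00168, adjusted p = 0.0084) and Spearman's coefficient = 0.79 (permutation p = 0.00177, adjusted p = 0.00787), and r = 0.64 without the 2 farthest mice. Vegfc had r = 0.67 (permutation p = 0.0125, adjusted p = 0.0416), Spearman's coefficient = 0.70 (permutation p = 0.0101, adjusted p = 0.0338) and r = 0.68 without the 2 farthest mice. Removing the group means left r at 0.88 for Vegfa, 0.84 for Thbs1 and 0.69 for Vegfc.

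Tek tracked the endothelial score most closely, with r = 0.97 (permutation p = 1.0e-05, the smallest these resamples can give, adjusted p = 2.0e-04) and Spearman's coefficient = 0.95 (permutation p = 1.0e-05, adjusted p = 4.0e-04). Without the 2 farthest mice r was 0.91. Flt1 had r = 0.89 (permutation p = 2.6e-04, adjusted p = 0.00208), Spearman's coefficient = 0.83 (permutation p = 8.2e-04, adjusted p = 0.00469) and r = 0.89 without the 2 farthest mice. Angpt1, usually described as a product of perivascular and stromal cells, had r = 0.89 (permutation p = 5.0e-05, adjusted p = 5.0e-04), Spearman's coefficient = 0.90 (permutation p = 1.1e-04, adjusted p = 0.0011) and r = 0.81 without the 2 farthest mice. Kdr had r = 0.79 (permutation p = 0.00239, adjusted p = 0.0106) and Spearman's coefficient = 0.62 (permutation p = 0.0291, adjusted p = 0.0627), so that only the first passed, and r = 0.82 without the 2 farthest mice. Serpinf1 (r = 0.70, adjusted permutation p = 0.0222) and Pgf (r = 0.69, adjusted permutation p = 0.0407) were the other 2 that passed.

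Serpinf1 tracked the fibroblast score, although its product is named for the pigment epithelium. Its r with the fibroblast score was 0.91 (permutation p = 1.0e-05, the smallest these resamples can give, adjusted p = 2.0e-04), with Spearman's coefficient = 0.92 (permutation p = 3.0e-05, adjusted p = 6.0e-04) and r = 0.87 without the 2 farthest mice. Its r with the RPE score was 0.48 (permutation p = 0.0951, adjusted p = 0.158), with Spearman's coefficient = 0.46 (permutation p = 0.120, adjusted p = 0.177), and 0.80 without the 2 farthest mice. The difference of the 2 correlations was not tested. Angpt1 (r = 0.84, adjusted permutation p = 0.00227) and Tek (r = 0.80, adjusted permutation p = 0.00354) also passed with the fibroblast score.

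**Figure D3:**
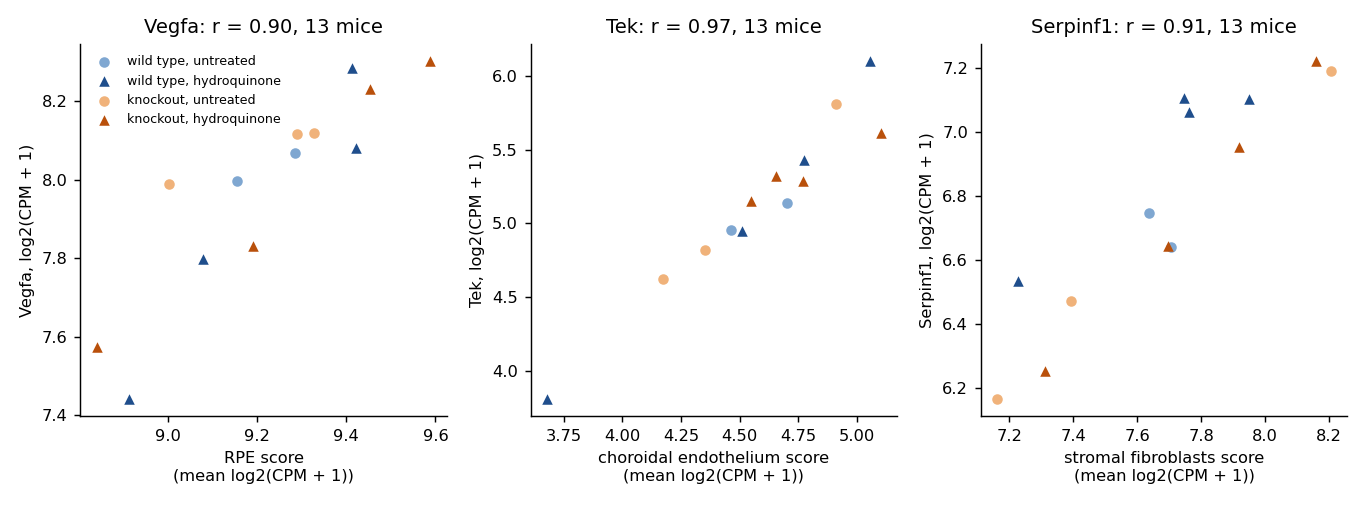
Each point is 1 of 13 mice, coloured by genotype and treatment: Vegfa against the RPE score, Tek against the endothelial score and Serpinf1 against the fibroblast score, all on log2(CPM + 1) scales. The values of r are 0.90, 0.97 and 0.91, and mice of the 4 groups are mixed along each line.

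**Figure D4:**
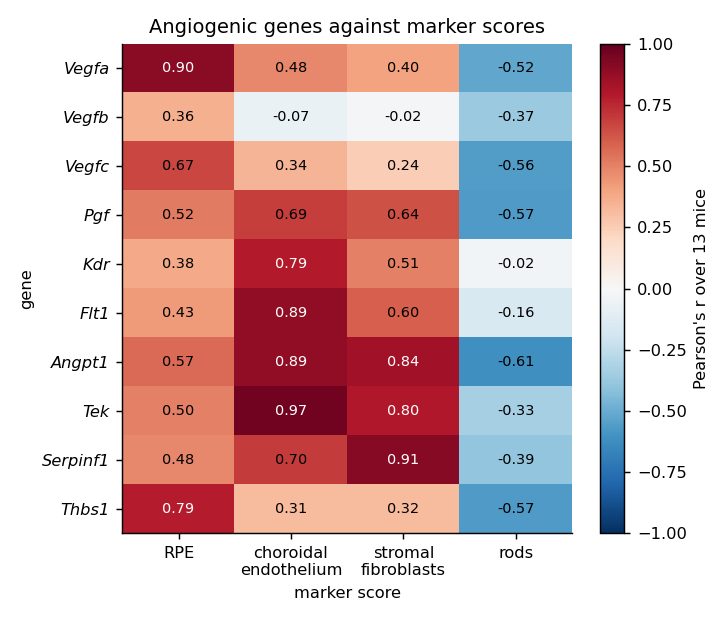
Pearson's r over 13 mice between each of the 10 genes (rows) and 4 marker scores (columns), from blue (-1) to red (1). Vegfa is highest with the RPE score (0.90), Tek with the endothelial score (0.97) and Serpinf1 with the fibroblast score (0.91), and every value for rods is below 0.

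Among pairs of the 10 genes, Kdr and Flt1 had the highest r over 13 mice, 0.97, followed by Flt1 and Tek at 0.92 and Angpt1 and Tek at 0.86. Vegfa and its receptor Kdr stood at 0.51, and Vegfa and Serpinf1 at 0.28. Vegfb was the least connected, with values from -0.23 with Tek to 0.33 with Vegfa. These values share library depth and scaling and are given as descriptions.

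Of all genes tested, those most like Kdr in Pearson's r over 13 mice were Flt1 (0.97), Car8 (0.96), Podxl (0.94), Acer2 (0.93) and Atf2 (0.93), of which Podxl belongs to the endothelial markers. Those most like Vegfa were Tmed8 (0.96), Fam13a (0.95), Nek6 (0.95), Slc4a5 (0.94) and Zfp853 (0.94). Those most like Serpinf1 were Dcn (0.95), Tnmd (0.95), Cilp2 (0.93), Mmp3 (0.92) and Col1a1 (0.92). Dcn and Col1a1, which encode the matrix proteins decorin and type I collagen, belong to the fibroblast markers.

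The promoter sequences of Kdr, Flt1 and Tek, which moved together, and of Vegfa, which moved with the RPE score, are shown for comparison. They are from RefSeq (GRCm38.p6), all as upstream bases outside the gene model, 5′ to 3′ on the gene's strand. Capitals mark GGAA or its reverse complement TTCC, the core recognised by ETS factors, which are known regulators of endothelial genes, and GGGCGG or CCGCCC, the GC box bound by SP factors. Kdr lies at chr5:75978459-75978705, Flt1 at chr5:147726012-147726261 and Vegfa at chr17:46032378-46032627, all on the minus strand, and Tek at chr4:94739039-94739288 on the plus strand.
Kdr: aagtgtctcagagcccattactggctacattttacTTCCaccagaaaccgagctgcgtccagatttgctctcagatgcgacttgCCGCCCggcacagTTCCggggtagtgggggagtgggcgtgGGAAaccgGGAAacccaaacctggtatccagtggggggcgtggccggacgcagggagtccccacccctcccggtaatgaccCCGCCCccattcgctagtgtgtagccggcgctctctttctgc
Flt1: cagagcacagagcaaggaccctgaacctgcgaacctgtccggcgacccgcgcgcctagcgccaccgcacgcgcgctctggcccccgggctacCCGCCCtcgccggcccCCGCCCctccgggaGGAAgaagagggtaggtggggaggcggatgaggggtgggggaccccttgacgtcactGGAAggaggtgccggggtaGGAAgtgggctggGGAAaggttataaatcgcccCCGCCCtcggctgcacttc
Tek: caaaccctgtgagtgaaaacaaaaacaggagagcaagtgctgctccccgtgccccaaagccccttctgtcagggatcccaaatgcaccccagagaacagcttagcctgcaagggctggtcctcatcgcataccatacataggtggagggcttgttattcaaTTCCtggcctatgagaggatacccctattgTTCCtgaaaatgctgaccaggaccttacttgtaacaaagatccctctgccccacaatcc
Vegfa: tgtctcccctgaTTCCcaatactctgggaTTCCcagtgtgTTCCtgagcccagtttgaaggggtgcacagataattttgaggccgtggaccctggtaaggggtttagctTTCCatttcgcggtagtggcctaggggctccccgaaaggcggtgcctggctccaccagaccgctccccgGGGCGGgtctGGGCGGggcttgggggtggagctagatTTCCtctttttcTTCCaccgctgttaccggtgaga
Both strands were searched, and overlapping matches were counted. The ETS core occurred 4 times in Kdr, 4 times in Flt1, 2 times in Tek and 6 times in Vegfa. At least 1 copy was in 93.4% of 32851 RefSeq windows of 250 upstream bases, with a median of 3, and 8.69% of windows held 6 or more. The GC box occurred 2 times in Kdr, 3 times in Flt1, 2 times in Vegfa and not in Tek, and was in 32.7% of windows. The antioxidant response element core TGACNNNGC, searched because of the oxidant, was found once in Kdr and was not found in the other 3 sequences, against 10.2% of all windows. The hypoxia response element core ACGTG was in none of the 4 and in 16.6% of all windows. The table holds another Vegfa window, chr17:46025114-46025413 on the minus strand, which is not printed and had 2 ETS cores, 1 GC box and 1 hypoxia response element core. Of the 10 genes, 8 had a window in the table.

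The library identifiers in the sample descriptions come without or with a letter, 9 and 7 libraries, respectively, and the hydroquinone estimates differed between these forms. What the letter stands for is not given. Among libraries without a letter, 3 of the 10 genes had an estimate above 0 for hydroquinone averaged over genotype, with a median of -0.18. The median over all genes tested was 0.0015 in these libraries. Among libraries with a letter, where the exposed wild-type group was replicate 4 alone, all 10 did, with a median of 0.52. There the median over all genes tested was -0.027. No gene passed after adjustment in the libraries with a letter, and 2 genes, neither of them among the 10, passed in the others.

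Serpinf1 had a log2 fold change of -0.38 (SE 0.18) without a letter and of 0.84 (SE 0.16) with one. Pgf stood at 0.08 (SE 0.24) and 0.93 (SE 0.23), and Angpt1 at -0.26 (SE 0.35) and 0.93 (SE 0.25). For Tek the values were -0.17 (SE 0.42) and 0.73 (SE 0.18), and for Thbs1 0.12 (SE 0.30) and 0.61 (SE 0.17). Vegfa went from -0.27 (SE 0.19) to 0.08 (SE 0.11). Marker genes of other cells moved with them. The 13 endothelial markers were above 0 in 1 case without a letter (median -0.14) and in 13 with one (median 0.55), and the 7 fibroblast markers in 0 (median -0.33) and in 7 (median 0.70). The rod score separated the treatments in libraries with a letter, at 7.36 to 9.85 untreated and 2.77 to 4.38 with hydroquinone. Without a letter it was 3.55 to 6.18 untreated and 3.56 to 9.69 with hydroquinone. What part the rod RNA had in the estimates within a form was not tested. The difference between the forms in the hydroquinone estimates was not tested, and the 3 mice with a library of each form were all untreated. With the form as a covariate over all 16 libraries, the estimates for hydroquinone stayed near those first given: 0.45 (SE 0.19) for Pgf, 0.37 (SE 0.19) for Thbs1 and -0.08 (SE 0.12) for Vegfa. Such a covariate cannot take up a hydroquinone effect that differs between the forms, so these values do not bear on that difference.

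**Figure D5:**
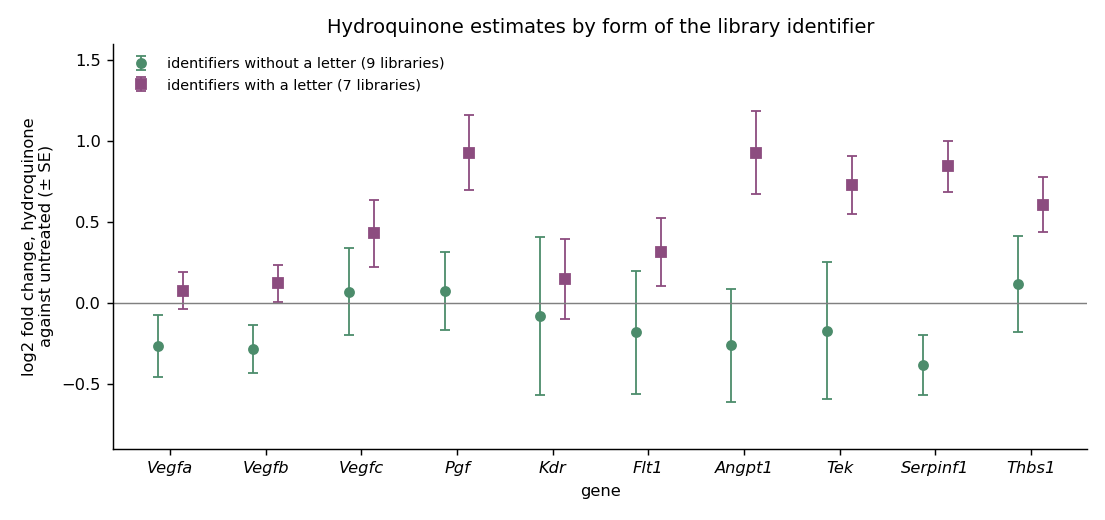
Log2 fold change for hydroquinone against untreated, averaged over genotype, ± SE, for the 10 genes in the 9 libraries whose identifier has no letter and the 7 with a letter. All 10 squares (with a letter) lie above 0, and 7 of the 10 circles (without) lie below it. Over all genes tested the median was -0.027 with a letter and 0.0015 without. With a letter, the exposed wild-type group was replicate 4 alone.

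Within the forms some relations changed sign, such as that of Kdr with the RPE score, at an r of 0.57 without a letter and -0.12 with one, and those given next were above 0 in both. For Vegfa and the RPE score r was 0.93 over 9 libraries without a letter and 0.80 over 7 with one. For Tek and the endothelial score the values were 0.98 and 0.97, for Flt1 0.98 and 0.76, and for Angpt1 0.85 and 0.95. Kdr fell from 0.96 to 0.43. For Serpinf1 and the fibroblast score they were 0.89 and 0.97, and for Thbs1 and the RPE score 0.66 and 0.93.

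Fits with a marker score as a covariate gave the hydroquinone estimates at an equal score. With the endothelial score the estimate of Tek was 0.02 (SE 0.09), that of Flt1 -0.11 (SE 0.11) and that of Kdr -0.17 (SE 0.18), with SEs below those of the fit without it. With the RPE score Thbs1 was at 0.34 (SE 0.11) and Vegfa at -0.11 (SE 0.07). With the fibroblast score Serpinf1 was at 0.12 (SE 0.07). None of the 10 passed the test in any of the 7 comparisons under any of 31 settings, 2140 tests in all. The smallest adjusted p among them was 0.116, for Serpinf1 under hydroquinone in knockout in the libraries with a letter.

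A further list of 58 angiogenesis genes, which held other ligands, receptors, Notch, endothelin and matrix genes, was read from the same fit. All 58 were tested, and none passed in any of the 7 comparisons. For hydroquinone averaged over genotype 36 of the 58 had an estimate above 0, with a median of 0.09, and 4 had an unadjusted p below 0.05. Over all genes tested 51.2% were above 0, the median was 0.00 and 5.72% had an unadjusted p below 0.05. Angptl4, Apln and Ednrb were among the 4.

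Angptl4, an inhibitor of lipoprotein lipase induced by fasting and hypoxia, came closest. It was at 8.51, 8.70, 12.3 and 8.60 CPM in untreated wild type and at 4.69, 6.08, 5.49 and 8.13 CPM with hydroquinone, so that the groups did not overlap. Knockout libraries were at 18.98, 12.0, 11.4 and 7.30 CPM untreated and at 6.95, 4.28, 7.16 and 5.30 CPM with hydroquinone, again without overlap. How many of all genes lacked overlap was not counted. Angptl4 was named for its small p in these same libraries, so the lack of overlap adds no support. Its log2 fold change was -0.85 (SE 0.19, edgeR adjusted p = 0.297), and DESeq2 gave -0.85 with an adjusted p of 0.0177, while the adjusted p was between 0.104 and 0.999 under the other 28 alternatives. Apln, the ligand of the apelin receptor, had an estimate of -1.02 (SE 0.32, edgeR adjusted p = 0.761). The endothelin receptor gene Ednrb stood at -0.50 (SE 0.20, edgeR adjusted p = 0.864).

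For knockout against wild type averaged over treatment, 41 of the 58 genes were above 0, with a median of 0.07, where 55.7% of all genes tested were above 0, their median was 0.02 and 2.96% had an unadjusted p below 0.05. The 2 of the 58 with an unadjusted p below 0.05 were Tgfb2, at 0.58 (SE 0.17), and Dusp5, at -0.74 (SE 0.29), both with an edgeR adjusted p of 0.987. Col18a1, the source of endostatin, at 0.35 (SE 0.17), and Fgfr1, at 0.19 (SE 0.09), came next.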

How the data were processed

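Reads had been summarised by the authors into 1 table of counts, by Ensembl gene, for 16 libraries. Although its name announces FPKM, 100% of its values were whole, so the counts were used as deposited. The submitters' processing notes name STAR, Cufflinks, DESeq2 and mm10, with no roles, and the strand setting is not given in the sources used here. GENCODE vM21 (GRCm38) gave symbols, positions and exon lengths, with 51719 of 51912 identifiers matched. The 15380 genes whose CPM averaged 1 or more, with 99.8% of all counts, were fitted in 1 model of 4 group means with edgeR 4.0.16 in R 4.3.3 (quasi-likelihood F test, TMM scaling, Benjamini-Hochberg adjustment, threshold 0.05). CPM values are TMM-scaled, and SEs and 95% intervals were derived from the same fit. Eyes of a mouse entered as separate libraries, so p-values partly measure the spread between eyes. The consensus correlation of the eyes of a mouse was -0.020 (limma 3.58.1). It rested on 3 untreated mice whose eyes differed in identifier form, so it cannot show that the eyes of a mouse are independent. Ratios and marker scores used log2(CPM + 1), averaged per mouse, with permutation tests in Python and numpy. Alternatives were median-of-ratios scaling, no filter, DESeq2 1.42.0, limma with the mouse as a block, eyes summed, covariates, fewer groups and each library left out. The edgeR script was tested on simulated data.

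The 10 genes and all lists were chosen with earlier results of these data known. The genes named were the 10, the called genes, of the 58 further angiogenesis genes those past the threshold or else at most 4 per comparison with the smallest p, and the 5 genes most like Vegfa, Kdr and Serpinf1. Fits with RPE, corneal and fibroblast scores, and within identifier forms, were chosen after seeing the data. Some values that this rule gave are not reported here.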

Additional observations from a re-analysis of the deposited data

Results flagged for a closer look

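In 48 sets of 4 libraries of a group (the 10 genes and the 2 ratios), 3 held a library far from the others, where the gap to the nearest library divided by the whole range passed the 5% limit of Dixon's test, 0.829. Chance alone gives about 5% of sets. Pgf was high in replicate 4 of knockout with hydroquinone, at 4.77 on the log2(CPM + 1) scale against 3.86 to 4.01 in the other 3 libraries (gap 0.8384 of the range). Serpinf1 was low in replicate 1 of wild type with hydroquinone, at 6.53 against 7.07 to 7.11 (gap 0.9253 of the range), the library that also had the lowest Kdr, Flt1 and Tek. The log2 ratio of Flt1 to Kdr was low in replicate 3 of wild type with hydroquinone, at -0.24 against 0.21 to 0.25 (gap 0.9238 of the range), the library with the highest Kdr.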

How the results depend on the processing

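None of the 10 genes passed the test under any setting. In the averaged comparisons 269 of 290 alternative estimates for hydroquinone and 266 of 290 for knockout kept their direction. The number of genes called for hydroquinone was 1 in wild type, 7 in knockout and 13 averaged over genotype. In wild type it was 2 with the identifier form as a covariate, with only the groups compared or with median-of-ratios scaling, 3 with limma and the mouse as a random block, 4 with the rod or the RPE score as a covariate, 20 with DESeq2 and 0 in libraries with a letter. In knockout it was 14 with DESeq2 or with the RPE score, 4 with the identifier form, 3 with eyes summed, 1 in libraries without a letter, and 0 with only the groups compared or only libraries with a letter. Averaged over genotype it was 37 with DESeq2, 6 with eyes summed, 2 in libraries without a letter and 0 with one. For knockout under hydroquinone DESeq2 called 3 and the fit with the RPE score 1. Leaving out 1 library at a time gave 1 to 3, 3 to 11 and 7 to 15 called genes for hydroquinone in wild type, in knockout and averaged. Averaged, it was 7 without untreated wild-type replicate 4, exposed wild-type replicate 4, untreated knockout replicate 3 or exposed knockout replicates 2, 3 or 4, and 8 without untreated wild-type replicates 1 or 2 or untreated knockout replicate 4. In knockout it was 3 without untreated replicate 2 or exposed replicate 3, 4 without untreated replicates 1 or 3, exposed replicate 2, untreated wild-type replicate 2 or exposed wild-type replicate 4, and 11 without exposed replicate 1. In wild type it was 3 without exposed knockout replicate 1 and 2 without exposed knockout replicate 4. The cause of these shifts was not tested.

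Libraries without a letter reversed the hydroquinone estimates of Kdr (-0.079), Flt1 (-0.18), Angpt1 (-0.26), Tek (-0.17) and Serpinf1 (-0.38) averaged over genotype, of Pgf in wild type (-0.12) and of Thbs1 in knockout (-0.15), and the knockout estimates of Vegfa (-0.022) and Kdr (-0.013). Libraries with a letter reversed those of Vegfa (0.077), Vegfb (0.12) and Ednrb (0.049) for hydroquinone and of Flt1 (-0.015) and Tek (-0.29) for knockout. Kdr for hydroquinone was -0.0084 with limma and the mouse as a random block. With the endothelial score as a covariate Kdr was -0.17 and Flt1 -0.11 for hydroquinone, and with the fibroblast score -0.059 and -0.036. With the corneal score Kdr was -0.072 and Flt1 -0.021 for hydroquinone, and for knockout Vegfa was -0.054, Kdr -0.085, Flt1 -0.027 and Tek -0.019. With the rod score Vegfa was -0.0061, Vegfc -0.042 and Tek -0.059 for knockout. Leaving out 1 library gave hydroquinone ranges from -0.23 to 0.21 for Kdr, from -0.14 to 0.19 for Flt1, from -0.0023 to 0.37 for Tek and from -0.028 to 0.38 for Pgf in wild type. For knockout they ran from -0.0064 to 0.13 for Vegfa, -0.047 to 0.18 for Vegfc, -0.086 to 0.36 for Kdr, -0.050 to 0.27 for Flt1, -0.096 to 0.28 for Tek, -0.20 to 0.015 for Serpinf1 and -0.16 to 0.032 for Thbs1.

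The log2 ratio of Vegfa to Serpinf1, hydroquinone minus untreated, was 0.069 in libraries without a letter and -0.74 with one. The exact permutation p with a letter was 0.0286, unadjusted, the smallest that so few mice can give. Exposed wild type was replicate 4 alone there. With 1 library left out the difference was -0.48 to -0.18. Without untreated knockout replicate 2 the exact permutation p was 0.0444, also unadjusted. The ratio of Flt1 to Kdr was -0.064 for hydroquinone and 0.060 for knockout in libraries without a letter, and -0.0069 to 0.097 for hydroquinone with 1 library left out. For knockout the ranges with 1 library left out were 0.095 to 0.35 for Vegfa to Serpinf1 and -0.12 to -0.0096 for Flt1 to Kdr. No paired analysis was possible because the replicate numbers follow accession order and pair no samples between groups, and both eyes of a mouse belong to the same group. Depth was at least 172 counts per gene and library for the 10 genes, and untreated wild type rested on 2 mice.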
